A study of Mus musculus with 21 samples.

Results

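The 8 genes described here are the cytokine gene Il10, the genes of both chains of its receptor (Il10ra and Il10rb), the gene of the transcription factor that carries the receptor's signal (Stat3), and 4 genes of the SOCS family of feedback inhibitors (Socs1, Socs2, Socs3 and Cish). They were chosen by name, as the rows of the deposited gene table whose Ensembl ID belongs to one of these symbols. All 8 were found among the 23250 genes of the table, and all 8 passed the filter on low counts that left 13468 genes for testing. RNA was sequenced from macrophages grown from the bone marrow of C57BL/6J mice for 7 days in medium with supernatant of cells that make GM-CSF. The series describes the cells as MR-deficient, that is, lacking the mannose receptor encoded by Mrc1, and this holds for every group, controls included. The 7 groups of 3 libraries each are untreated cells (0 h), cells given FcMR, a fusion of the extracellular region of the mannose receptor with the Fc region of human IgG1, for 4, 12 or 24 h, and cells given an isotype control for the same times. No untreated cells were sampled at the later times, and the labels do not say whether the 3 libraries of a group came from separate mice or cultures, so p-values measure only the spread between these libraries.

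IL-10 is an anti-inflammatory cytokine that macrophages release and to which they also respond. It binds a receptor of a ligand-specific chain, Il10ra, and a chain shared with other cytokines, Il10rb. The bound receptor activates JAK kinases and through them the transcription factor STAT3, which enters the nucleus and switches on target genes, Socs3 among them. SOCS proteins are induced by cytokines and limit cytokine signalling in turn. Socs3 is best known for limiting signals of receptors that use gp130, the IL-6 receptor chain encoded by Il6st, Socs1 for limiting interferon signals, and Cish and Socs2 as targets of STAT5, which GM-CSF activates.

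Library totals ran from 5532225 to 66729533 counts, so that the level of 3 counts, the floor used here, lay between 0.045 and 0.542 CPM, the count of a gene divided by the TMM-scaled total of its library. Mrc1 was at 0 to 11 counts per library, at most 0.589 CPM. Of the macrophage markers all 8 were detected, with summed levels between 20411 and 35843 CPM, most of it Lyz2. The dendritic cell markers H2-Aa, Cd74, Itgax and Ccr7 were abundant as well, with a list sum of 4739 to 13102 CPM, as is usual for cultures with GM-CSF. The other markers of that list were low, with group means of at most 46.6 CPM for Zbtb46, 39.5 for Dpp4, 28.8 for Flt3 and 15.8 for Cd209a. T and NK cell markers summed to at most 5.27 CPM, with a median of no more than 3 counts for Cd3e, Cd3d, Trbc2 and Cd5. The libraries also differed in how strongly GC-rich genes were represented relative to GC-poor ones. This GC tilt, the mean log2 deviation of the tenth of genes with the highest GC content minus that of the tenth with the lowest, was even among the isotype 24 h libraries (between -0.10 and -0.05). It was uneven in isotype 4 h (-0.85, -1.65 and 0.66), FcMR 12 h (-0.75, 0.75 and 0.84) and FcMR 24 h (-0.37, -1.32 and 0.43), and also in the untreated libraries (0.83, 0.03 and 0.46), the reference for every comparison with untreated cells. The tilt also differed between groups, being above 0 in every isotype 12 h library (0.60, 0.83 and 0.85) and below 0 in every FcMR 4 h library (-0.39, -0.19 and -0.54). Isotype 4 h replicate 3 and FcMR 12 h replicate 1, the libraries whose title numbers stand in each other's place, were also the only ones closer over all tested genes to the mean of another group than to that of their own. The former was closest to isotype 12 h and the latter to FcMR 24 h, in each case a group of the labelled treatment. After a correction for GC content every one of the 21 libraries was closest to its own group. The labels were kept on this corrected profile over all tested genes. The level of Il10 in the 2 libraries out of title order, 2.32 and 12.7 CPM, also matched the labelled group and not the other one. Il10 is one of the genes described here, so its level is no independent check of the labels. GC content was 58.7% of the transcript in Socs1, 58.7% in Socs3 and 56.3% in Cish, against 44.5% in Il10, and corrected values of Socs1, Socs3 and Cish are given below. The correction was fitted to each library without regard to its group, so it may also remove differences between groups that go with GC content.

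Between FcMR and isotype, 5 of the 8 genes rose at 4 h, 4 rose at 12 h, and at 24 h 4 rose and 1 fell, at an adjusted p under 0.05 in edgeR's quasi-likelihood test with Benjamini-Hochberg adjustment over all 13468 genes. Over all genes tested, 17.7% were called at 4 h (8.62% higher and 9.13% lower), 16.1% at 12 h (8.61% higher and 7.49% lower) and 20.9% at 24 h (11.4% higher and 9.44% lower). The 8 genes had median log2 fold changes of 1.04, 0.57 and 0.74 at the 3 times in turn, beside medians over all genes of -0.07, -0.02 and 0.01. Il10, Socs3 and Cish were called higher at all 3 times. The libraries of both groups did not overlap for 6 of the 8 genes at 4 h, 3 at 12 h and 6 at 24 h, where 29.7%, 35.4% and 34.4% of all genes did not overlap. The balance of the calls over all genes at 4 h depends on the scaling: 1161 higher and 1229 lower with TMM became 1412 higher and 839 lower with RLE factors, a shift of 0.07 in the median log2 fold change, and the 5 called members were higher under both.

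**Figure D1:**
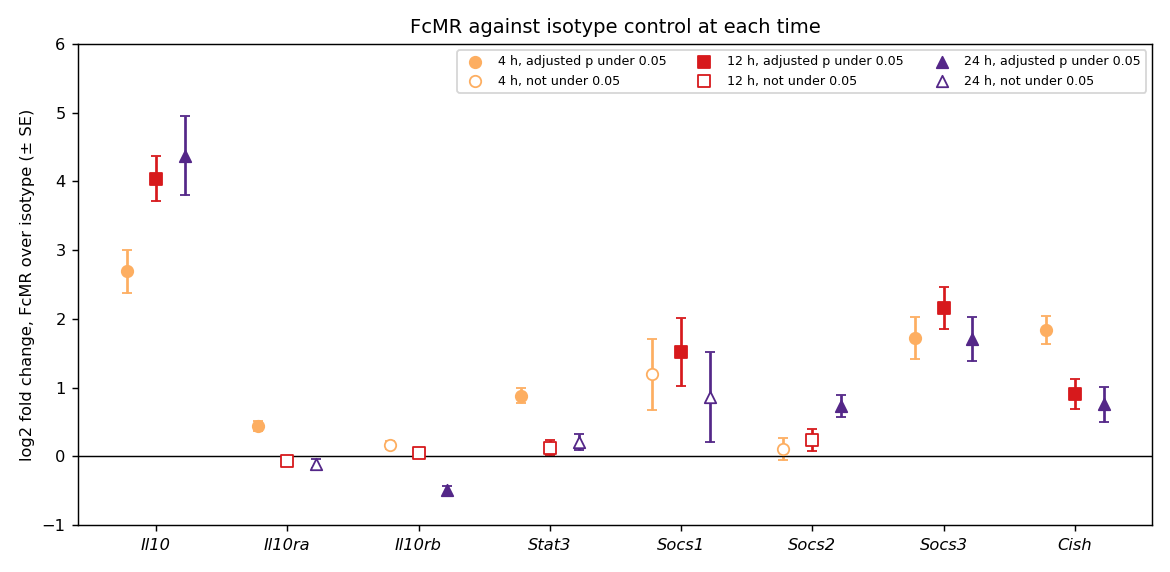
Log2 fold change of FcMR over isotype (y axis, with its standard error) for each of the 8 genes (x axis) at 4, 12 and 24 h, 3 libraries per group; filled symbols have an adjusted p under 0.05. Il10 has the highest values, from 2.69 to 4.37, Socs3 stays between 1.70 and 2.15, Cish declines from 1.84 to 0.76, and Il10rb is the only gene called lower.

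Il10 (Ensembl gene ENSMUSG00000016529, chromosome 1, 131019845-131024974, plus strand, GRCm38, overlapping no other annotated gene) was almost absent from untreated cells, with 1, 4 and 0 counts, and at 12.8 ± 1.58 CPM (SD, n = 3) after 4 h of FcMR. In the FcMR libraries it stood at 11.05, 13.1 and 14.2 CPM at 4 h, 12.7, 9.25 and 9.42 CPM at 12 h, and 2.36, 1.58 and 1.097 CPM at 24 h. In the isotype libraries it stood at 1.87, 1.62 and 2.32 CPM at 4 h, 0.505, 0.733 and 0.666 CPM at 12 h, and 0.0981, 0 and 0.129 CPM at 24 h. Every FcMR library was above every isotype library of its time, and the levels of both treatments were lowest at 24 h.

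The log2 fold change of FcMR over isotype was 2.69 ± 0.31 (SE) at 4 h (adjusted p 1.04e-05, edgeR), 4.04 ± 0.32 at 12 h (adjusted p 1.02e-07) and 4.37 ± 0.57 at 24 h (adjusted p 1.89e-05). At 24 h the isotype group held 2 counts in all against 75 with FcMR, so the ratio of the summed counts per total, 22.1, carries a 95% counting interval of 5.91 to 186. Whether the FcMR effect on Il10 differed over the 3 times was not settled (joint test, adjusted p 0.0851, edgeR). The isotype control was itself accompanied by more Il10 than in untreated cells, by 4.05 ± 0.49 on the log2 scale at 4 h (adjusted p 3.31e-06, edgeR) and 2.42 ± 0.51 at 12 h (adjusted p 0.000916). Of the 5 untreated counts 4 came from replicate 2, and without it these differences were 5.22 and 3.59, both called. At 24 h that difference was -0.54 ± 0.88 and did not pass the test (adjusted p 0.695, edgeR), with at most 4 counts in any of these 6 libraries. With FcMR the log2 difference from untreated cells was 6.75 ± 0.42 at 4 h (adjusted p 3.32e-10, edgeR). It was 6.46 ± 0.42 at 12 h (adjusted p 6.29e-10) and 3.83 ± 0.47 at 24 h (adjusted p 2.48e-06). The 4 h value ran from 6.30 to 7.91 when single libraries were left out. Without TMM scaling, the summed counts of FcMR 4 h were 84.2 times those of untreated cells per total (95% counting interval 35.9 to 260). In libraries made from whole cultures, fewer cells of a type and less RNA per cell cannot be told apart, here and below. The summed level of the 6 stromal cell markers was also higher with FcMR, at a mean of 16.03 against 10.9 CPM at 4 h, 22.5 against 7.51 CPM at 12 h and 13.7 against 4.85 CPM at 24 h. At 12 h Pdgfrb was the main part of that difference (11.6 against 1.59 CPM), while at 4 h Pdgfrb (3.78 against 1.91 CPM), Cdh5 (5.56 against 3.78 CPM) and Pecam1 (5.45 against 4.15 CPM) shared it. Pdgfrb was called higher at all 3 times, Dcn at 12 and 24 h (2.97 against 0.0981 CPM at 24 h) and Pecam1 at 12 h, and Col3a1 was at or near 0 in every group. Further marker sums that did not overlap between FcMR and isotype were those of dendritic cells at 4 h (11108 to 13102 against 6712 to 10468 CPM), and at 24 h those of macrophages (25834 to 27760 against 31625 to 35843 CPM), neutrophils (195 to 210 against 159 to 187 CPM) and mast cells and basophils (23.04 to 27.7 against 12.9 to 17.3 CPM). At 24 h members of these lists did not all move as their sum. Of the macrophage markers Lyz2, Itgam, Cd68, Fcgr1 and Mertk were lower with FcMR and Adgre1 (1507 against 837 CPM), Ptprc and Csf1r higher. Of the neutrophil markers S100a8 (137 against 85.4 CPM) and Camp were higher and S100a9, Ltf, Ly6g, Elane, Mpo and Retnlg lower. Of the mast cell and basophil markers Kit (17.8 against 8.47 CPM) was the main part and Tpsb2 was lower. The part of these cells in the results was not tested.

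**Figure D2:**
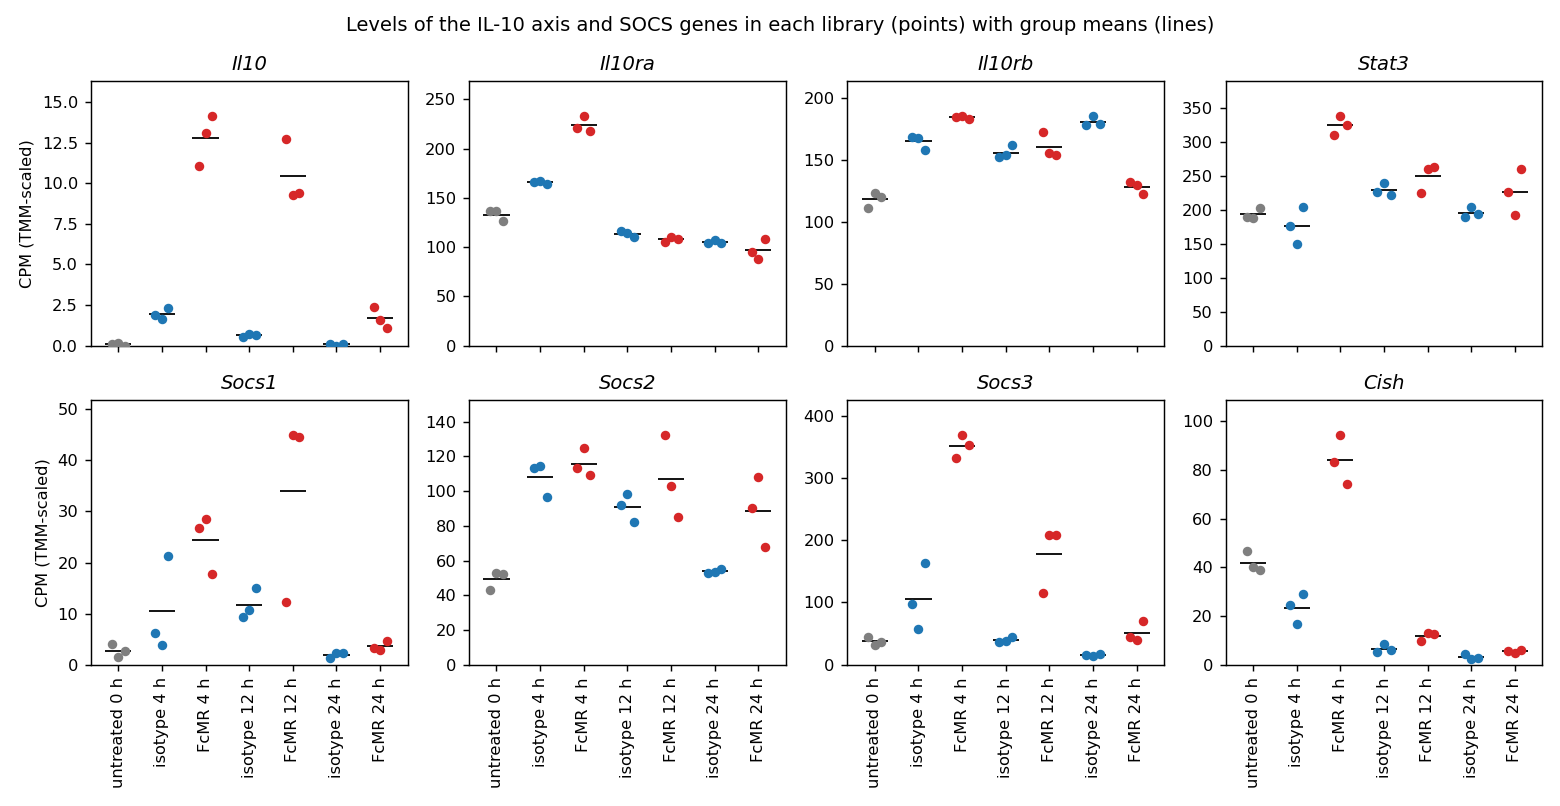
CPM after TMM scaling (y axes, from 0) in each of the 21 libraries (points: grey untreated, blue isotype, red FcMR) with the group mean as a line, one panel per gene. The FcMR libraries stand apart from the isotype libraries of the same time for Il10, Socs3 and Cish at all 3 times, and for Stat3 at 4 h and not later.

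Il10ra (ENSMUSG00000032089, chromosome 9, 45253837-45269149, minus strand), the ligand-binding chain, rose early and then fell under both treatments. Untreated libraries held 137, 136 and 126 CPM. At 4 h the FcMR libraries held 221, 234 and 218 CPM and the isotype libraries 167, 167 and 164 CPM, with no overlap between them or with untreated cells. The FcMR effect at 4 h was 0.44 ± 0.07 on the log2 scale (adjusted p 0.000271, edgeR). By 12 h the group means were 108 CPM with FcMR and 114 CPM with isotype, and by 24 h 97.5 and 105 CPM, with overlapping libraries at both times and FcMR effects of -0.07 and -0.11 that did not pass the test. Against untreated cells, isotype was higher by 0.32 at 4 h (adjusted p 0.00173, edgeR) and lower by -0.23 at 12 h (adjusted p 0.0137) and -0.34 at 24 h (adjusted p 0.000696). The 12 h value lost its call when any of 5 single libraries of its 6 was left out, with adjusted p of 0.0553 to 0.113. The FcMR effect differed over the 3 times (joint test, adjusted p 0.00184, edgeR). GC correction did not narrow every group of Il10ra. The highest isotype 4 h library was 1.33 times the lowest after it, against 1.02 times before. In FcMR 12 h this ratio went from 1.05 to 1.17, and in FcMR 24 h it fell from 1.23 to 1.04.

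Il10rb (ENSMUSG00000022969, chromosome 16, 91406164-91425834, plus strand), the shared chain, was the only one of the 8 genes called lower with FcMR than with isotype at any time. At 24 h the FcMR libraries held 132, 130 and 123 CPM and the isotype libraries 178, 185 and 179 CPM, without overlap and with a log2 fold change of -0.50 ± 0.06 (adjusted p 1.58e-05, edgeR). At 4 h the order was the opposite, with 184, 186 and 183 CPM under FcMR and 169, 167 and 158 CPM under isotype. That difference of 0.16 ± 0.06 did not pass the test with TMM factors (adjusted p 0.0908, edgeR) and passed it with RLE factors (0.23, adjusted p 0.0467) and after GC correction (0.25, adjusted p 0.000669). At 12 h the libraries overlapped (0.04 ± 0.06). The effect differed over time (joint test, adjusted p 0.000215, edgeR). Isotype was above untreated cells, whose libraries held 111, 123 and 120 CPM, by 0.48, 0.40 and 0.61 at 4, 12 and 24 h, all called, while FcMR at 24 h had a difference of 0.12 from untreated cells that did not pass (adjusted p 0.13, edgeR). The readthrough gene Gm21970 overlaps Il10rb on the same strand and reached at most 25.1 CPM, so a small share of reads may have been split between them.

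Stat3 (ENSMUSG00000004040, chromosome 11, 100885098-100939540, minus strand) rose with FcMR at 4 h. FcMR libraries held 310, 339 and 325 CPM at that time, isotype libraries 175, 149 and 204 CPM and untreated libraries 189, 187 and 203 CPM. The FcMR libraries were thus all above the others, and the isotype and untreated libraries overlapped. The log2 fold change was 0.88 ± 0.11 (adjusted p 2.53e-05, edgeR). At 12 h the means were 249 ± 21.2 and 229 ± 8.82 CPM (SD, n = 3) and at 24 h 226 ± 33.8 and 196 ± 7.11 CPM, with log2 fold changes of 0.12 and 0.21 that did not pass the test. After GC correction, which narrowed the FcMR 24 h libraries from a range of 192 to 259 CPM to one of 220 to 243 CPM, both were called, at 0.20 (adjusted p 0.0106, edgeR) and 0.26 (adjusted p 0.00111). The effect differed over time (joint test, adjusted p 0.00588, edgeR). FcMR was above untreated cells by 0.75 at 4 h (adjusted p 2.14e-05, edgeR) and 0.37 at 12 h (adjusted p 0.0102). At 24 h it was above them by 0.23, which did not pass. Isotype differed from untreated cells by -0.13, 0.24 and 0.02 in order of time, none called. All isotype 12 h libraries were above all untreated ones (adjusted p 0.0863, edgeR). Stat3 overlaps Stat5a on the opposite strand, which reached 343 CPM, and no source used here says that counting used strand, so reads from the overlap cannot be assigned with certainty.

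Of the SOCS genes, Socs3 and Socs1 are shown with the stretches upstream of their RefSeq starts and Cish with 30 bases at its start, because these were the family members that moved furthest and because STAT and IRF proteins, which transmit cytokine signals, bind short recurring letters. Entries were found for 4 of the 8 genes (Stat3, Socs1, Socs3 and Cish) in windows of 250 bases before to 50 bases after the start (RefSeq, GRCm38.p6). The RefSeq starts of Socs3 and Cish lie inside the gene positions given in this report. The stretches shown for these genes therefore also lie inside those positions, while that of Socs1 lies outside. Capitals mark the STAT palindrome TTCNNNGAA or the IRF repeat GAAANNGAAA, and position 1 is the first base of the transcript.
Socs3, chr11:117969452-117969616, minus strand, from position -250: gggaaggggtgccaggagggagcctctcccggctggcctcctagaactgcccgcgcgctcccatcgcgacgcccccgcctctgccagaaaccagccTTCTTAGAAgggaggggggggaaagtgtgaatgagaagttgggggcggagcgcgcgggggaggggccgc
Socs1, chr16:10785537-10785786, minus strand, from position -250: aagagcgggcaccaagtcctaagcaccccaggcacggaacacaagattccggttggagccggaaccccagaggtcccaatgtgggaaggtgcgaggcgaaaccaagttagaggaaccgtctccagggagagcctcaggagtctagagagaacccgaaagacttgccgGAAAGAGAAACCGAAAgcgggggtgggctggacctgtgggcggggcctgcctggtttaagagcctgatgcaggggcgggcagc
Cish, chr9:107296654-107296683, plus strand, from position -5: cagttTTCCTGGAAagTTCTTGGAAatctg

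In Socs3 the palindrome stood once, at -154 to -146, and in Cish 2 copies stood at 1 to 9 and at 12 to 20. In Socs1 the IRF repeat matched 2 times with overlap, at -83 to -74 and -77 to -68. Of 32851 windows of the same length, 8.30% held the palindrome and 0.457% held it 2 or more times, and 3.44% held the IRF repeat and 0.225% held it 2 or more times. Further motifs searched on both strands were the CRE core TGACG (in 20.8% of windows, in Cish at -97 to -93), the AP-1 motif TGANTCA (in 7.81%) and the palindrome with a spacer of 4, TTCNNNNGAA (in 6.95%). The AP-1 motif and the palindrome with a spacer of 4 had no match in the windows of Stat3, Socs1, Socs3 and Cish. The window of Stat3 held none of the 5. A match is a description of the letters and not evidence of binding.

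Socs3 (ENSMUSG00000053113, chromosome 11, 117966079-117970047, minus strand) rose with FcMR at every time and fell with time under both treatments. FcMR libraries held 332, 370 and 353 CPM at 4 h, 114, 208 and 208 CPM at 12 h, and 43.9, 39.1 and 70.8 CPM at 24 h. Isotype libraries held 97.7, 57.0 and 164 CPM at 4 h, 36.8, 37.6 and 44.6 CPM at 12 h, and 15.11, 14.4 and 17.6 CPM at 24 h. The groups overlapped at no time, and the libraries of isotype 4 h and FcMR 12 h lay far apart among themselves. The log2 fold change was 1.72 ± 0.30 at 4 h (adjusted p 0.00064, edgeR), 2.15 ± 0.31 at 12 h (adjusted p 7.11e-05) and 1.70 ± 0.32 at 24 h (adjusted p 0.000783).

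In the groups of uneven GC tilt the level of Socs3 went with the tilt of the libraries. In FcMR 4 h it did not, and there the highest library was 1.11 times the lowest before GC correction and 1.12 times after it. After GC correction the highest isotype 4 h library was 1.17 times the lowest, against 2.87 times before, and in FcMR 12 h the ratio went from 1.82 to 1.096. The corrected log2 fold changes were 1.73, 2.41 and 1.95, all called, and with the correction the effect differed over time (joint test, adjusted p 0.0013 against 0.741 without it, edgeR). Against untreated cells (44.5, 30.9 and 36.7 CPM), isotype was higher by 1.52 at 4 h (adjusted p 0.000822, edgeR), differed from them by 0.09 ± 0.30 at 12 h, which did not pass, and was lower by -1.25 at 24 h (adjusted p 0.00427); the corrected differences were 2.02, -0.15 and -0.89, the first and last called. FcMR at 24 h was 0.45 above untreated cells, which did not pass (adjusted p 0.224, edgeR) but did after GC correction (1.06, adjusted p 5.73e-09).

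**Figure D3:**
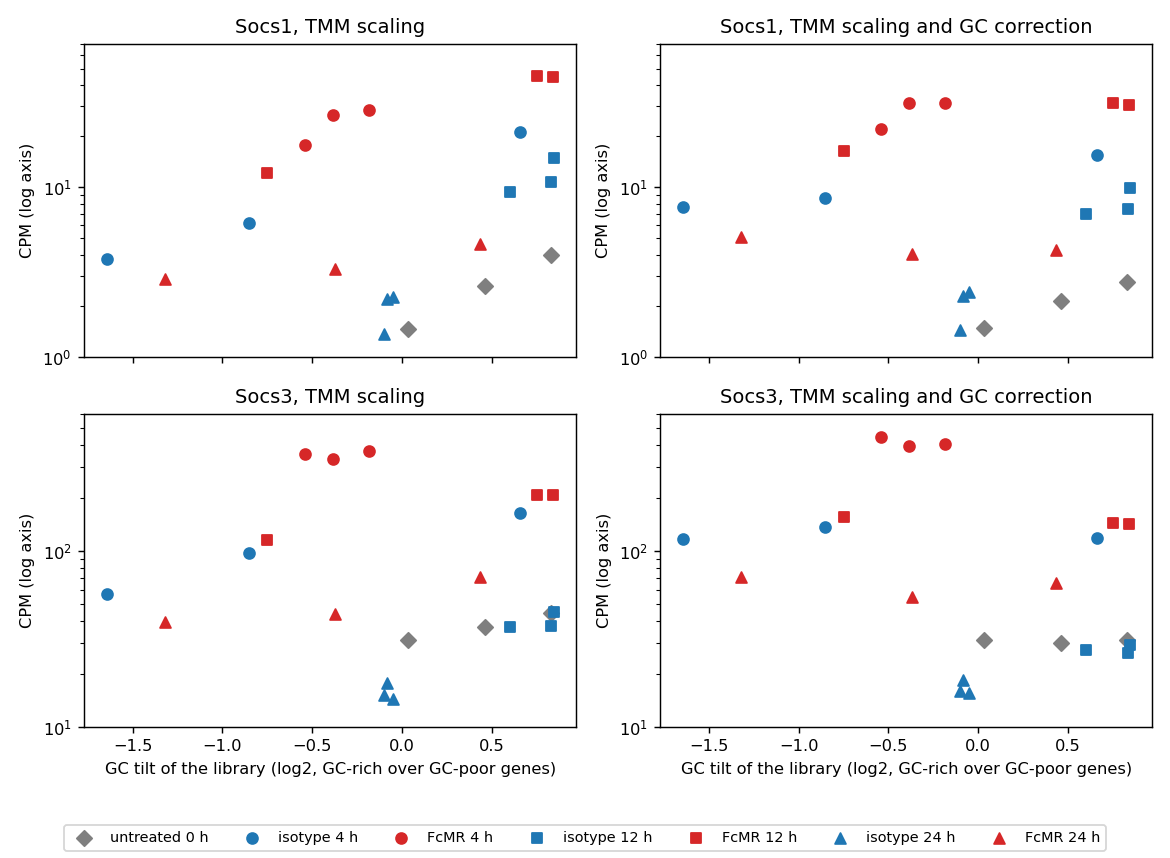
CPM (y axes, log scale) of Socs1 and Socs3 in each library against the library's GC tilt (x axis, log2), before (left) and after (right) GC correction; colour gives the treatment and symbol the time. Before correction the isotype 4 h and FcMR 12 h libraries rise with the tilt; after it the Socs3 libraries of each group lie within 1.29 times of one another, while FcMR 12 h replicate 1 stays lowest of its group for Socs1.

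Socs1 (ENSMUSG00000038037, chromosome 16, 10782240-10785536, minus strand) was a gene of low level and wide spread, and its FcMR calls depended on the GC correction. FcMR libraries held 26.8, 28.5 and 17.7 CPM at 4 h, 12.2, 45.1 and 44.5 CPM at 12 h, and 3.29, 2.87 and 4.63 CPM at 24 h. Isotype libraries held 6.18, 3.79 and 21.3 CPM at 4 h, 9.42, 10.7 and 14.98 CPM at 12 h, and 1.37, 2.25 and 2.19 CPM at 24 h. The groups overlapped at 4 and 12 h because of isotype 4 h replicate 3 and FcMR 12 h replicate 1, and did not overlap at 24 h. The log2 fold change was 1.20 ± 0.52 at 4 h (adjusted p 0.126, edgeR), 1.52 ± 0.50 at 12 h (adjusted p 0.0468) and 0.86 ± 0.66 at 24 h (adjusted p 0.425). Without isotype 4 h replicate 3 the 4 h value was 2.29 (adjusted p 0.00475, edgeR). The 12 h call was lost when either FcMR 12 h replicate 2 or 3 or any one isotype 12 h library was left out (log2 fold change 1.26 to 1.76, adjusted p 0.0659 to 0.167, edgeR). With GC correction all 3 times were called, at 1.32 (adjusted p 0.000917, edgeR), 1.67 (adjusted p 2.71e-05) and 1.18 (adjusted p 0.0275). Isotype was above untreated cells (3.98, 1.47 and 2.62 CPM) by 2.06 at 4 h (adjusted p 0.0102, edgeR) and 2.20 at 12 h (adjusted p 0.0045). The 4 h call was lost without isotype 4 h replicate 3 (0.99, adjusted p 0.17, edgeR), without untreated replicate 2 (1.71, adjusted p 0.0561) and with only the libraries compared (adjusted p 0.0736). The corrected differences were 2.47 at 4 h and 1.997 at 12 h, both called.

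Cish (ENSMUSG00000032578, chromosome 9, 107296026-107302784, plus strand) fell steadily in the isotype cells and was higher with FcMR at each time. Untreated libraries held 46.7, 40.2 and 38.8 CPM. Isotype libraries held 24.6, 16.8 and 29.0 CPM at 4 h, 5.22, 8.36 and 5.97 CPM at 12 h, and 4.41, 2.36 and 2.83 CPM at 24 h. FcMR libraries held 83.3, 94.5 and 74.2 CPM at 4 h, 9.83, 13.01 and 12.7 CPM at 12 h, and 5.65, 4.81 and 6.22 CPM at 24 h. The groups overlapped at no time, and by 12 h all libraries of either treatment were below all untreated ones.

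The FcMR effect was 1.84 ± 0.21 at 4 h (adjusted p 8.40e-06, edgeR), 0.91 ± 0.22 at 12 h (adjusted p 0.00643) and 0.76 ± 0.25 at 24 h (adjusted p 0.042). The 24 h call was lost without FcMR 24 h replicate 1 or 3 or isotype 24 h replicate 2 or 3 (0.58 to 0.74, adjusted p 0.0844 to 0.175, edgeR). With isotype the differences from untreated cells were -0.83, -2.73 and -3.69 in order of time, all called. FcMR was above them by 1.01 at 4 h (adjusted p 0.000425, edgeR) and below them by -1.82 at 12 h and -2.93 at 24 h. The FcMR effect differed over time (joint test, adjusted p 0.0494, edgeR), a call lost without any one of 11 single libraries (adjusted p 0.0512 to 0.137). With GC correction the FcMR effects on Cish were 1.79, 1.13 and 0.98 and still differed over time (joint test, adjusted p 0.0274, edgeR). The corrected differences from untreated cells were -0.46, -2.93 and -3.50 with isotype and 1.32, -1.80 and -2.52 with FcMR, all called. In the authors' normalized table the effect was 0.67 at 12 h (adjusted p 0.365, limma) and 1.02 at 24 h (adjusted p 0.0991). There the factor between count and normalized value of Cish ran from 0.543 to 1.54 times that of the median gene in the same library, wider than for the other 7 genes (0.916 to 1.08). The neutrophil marker sum fell over the same times, from a mean of 1241 CPM in untreated cells to 170 CPM in isotype and 204 CPM in FcMR cells at 24 h, and its part in the decline of Cish was not tested. The antisense gene Gm17041 overlaps Cish with at most 123 counts in a library.

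Socs2 (ENSMUSG00000020027, chromosome 10, 95385362-95417180, minus strand) rose under both treatments at 4 and 12 h and was higher with FcMR than with isotype at 24 h. Untreated libraries held 43.1, 52.7 and 52.5 CPM. At 4 h isotype libraries held 113, 115 and 96.5 CPM and FcMR libraries 113, 125 and 110 CPM, which overlapped, as did those of 12 h (means of 90.8 ± 8.18 and 107 ± 23.9 CPM, SD, n = 3). At 24 h isotype libraries were back at 52.7, 53.3 and 55.2 CPM, while FcMR libraries held 90.6, 108 and 67.7 CPM, all above them. The FcMR effects were 0.10 ± 0.16, 0.24 ± 0.16 and 0.73 ± 0.16, of which the last passed the test (adjusted p 0.0027, edgeR). Isotype exceeded untreated cells by 1.13 at 4 h (adjusted p 2.52e-05, edgeR) and 0.87 at 12 h (adjusted p 0.000253), and by 0.12 at 24 h, which did not pass. The difference of the FcMR effect over time did not pass either (joint test, adjusted p 0.148, edgeR), and passed without FcMR 24 h replicate 3 (adjusted p 0.0353).

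**Figure D4:**
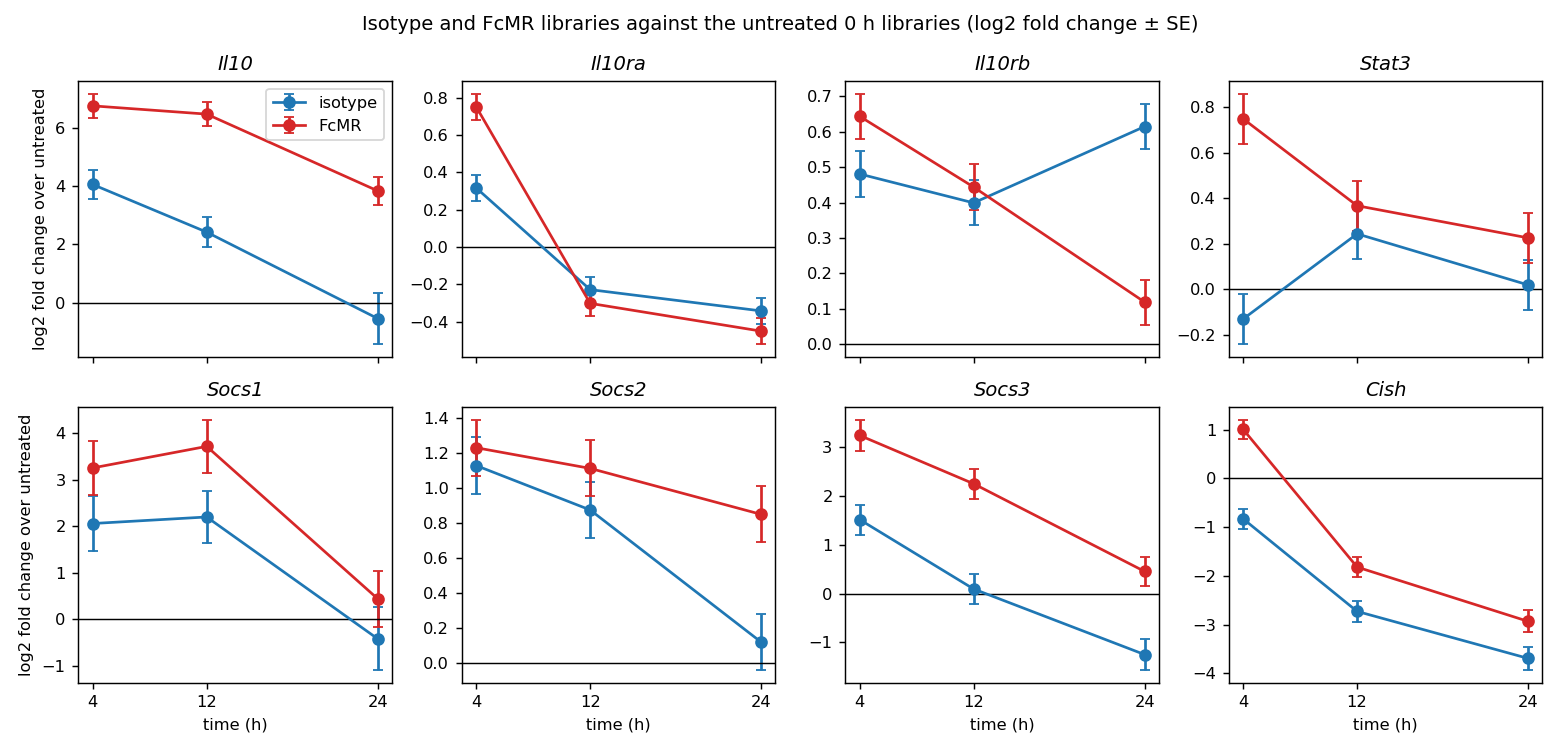
Log2 fold change over the untreated libraries (y axes, with standard errors) against time in hours for isotype (blue) and FcMR (red), one panel per gene, 3 libraries per group; both curves share the untreated libraries. Cish falls below untreated under both treatments, Il10rb parts at 24 h with isotype on top, and Socs2 stays 0.85 above untreated at 24 h only with FcMR.

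Against untreated cells, 7 of the 8 genes were called at 4 h of isotype (35.6% of all genes), 6 at 12 h (41.6%) and 4 at 24 h (42.2%), and 8, 8 and 4 with FcMR at the same times (48.2%, 48.1% and 51.4%). The 6 comparisons share the 3 untreated libraries. Of the 8 genes, 4 had an FcMR effect that differed over the 3 times, where 11.02% of all genes did; each of the 4 (Il10ra, Il10rb, Stat3 and Cish) had its highest value at 4 h.

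Per kilobase of transcript, the scale on which different genes can be compared, the receptor chains, Stat3 and Socs2 were the most abundant in untreated cells. The length used is the median over the annotated coding transcripts of a gene. For Socs2 it is 948 bases over 7 transcripts, and the rank of Socs2 rests on that length. Il10rb stood at 63.8 CPM per kb, Socs2 at 52.2, Stat3 at 51.9 and Il10ra at 42.3, followed by Cish at 15.3 and Socs3 at 14.6, with Socs1 at 0.945 and Il10 at 0.0715. After 4 h of FcMR, Socs3 was first with 138 CPM per kb, before Socs2 with 122 and Il10rb with 99.7, and Il10 had reached 9.75 and Socs1 8.55. After 24 h of isotype, Il10rb led again with 97.7 CPM per kb, and Socs3, Cish, Socs1 and Il10 were at 6.15, 1.17, 0.681 and 0.0577.

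Other genes of the pathway were taken from lists written with earlier results of these data known, and FcMR was compared with isotype in each. The counts of called genes in all these lists stand beside 17.7%, 16.1% and 20.9% of all genes tested at 4, 12 and 24 h. Several of the counts are near those shares, and none was tested as a set. Of the 4 remaining SOCS genes, Socs6 fell at all 3 times, by -0.55, -0.61 and -0.81 on the log2 scale (adjusted p 0.0016, 0.00052 and 2.48e-05, edgeR), and Socs7 rose at 4 h by 0.35 (adjusted p 0.00677). Socs4 and Socs5 passed at no time. Of 9 genes of JAK kinases and further STATs, 3 rose at 4 h, 2 at 12 h and 2 at 24 h, and none of the 9 fell. Stat5a, which GM-CSF signals through, had the largest rise at 4 h, from 128 to 300 CPM (1.22 ± 0.24, adjusted p 0.00143, edgeR). Jak2, the kinase bound to the GM-CSF receptor, rose at each time by 0.59, 0.52 and 1.19. Stat2 rose at 4 h by 0.78, and Stat4 at 12 and 24 h by 0.81 and 1.27. Of 10 other inhibitors of JAK-STAT signalling, 2 rose at 4 h, 1 rose and 1 fell at 12 h, and 1 rose and 1 fell at 24 h. Usp18, an interferon-induced inhibitor of the type I interferon receptor, rose at each time, by 1.30, 0.74 and 0.52. Ptpn11 rose at 4 h by 0.25, and Sh2b3, an adaptor that restrains JAK2, fell by -0.38 at 12 h and -0.56 at 24 h, the former not after GC correction (0.09). Leaving out single libraries ended some of these calls: Socs7 and Ptpn11 without FcMR 4 h replicate 2, Jak2 at 12 h without FcMR 12 h replicate 1 or isotype 12 h replicate 1 or 3, and Sh2b3 at 12 h without any one of those 3 libraries or FcMR 12 h replicate 2. Without FcMR 24 h replicate 3 the inhibitors held 4 calls at 24 h.

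Of 11 other ligands and receptors of the IL-10 family only 2 passed the filter on low counts. Il20rb, a receptor chain for IL-20 and related cytokines, rose at all 3 times, by 0.76, 0.86 and 0.95, to between 23.8 and 27.2 CPM. Ifnlr1, a receptor chain for interferon lambda that pairs with Il10rb, fell at 4 and 12 h by -0.87 and -1.23 and had a difference of 0.51 at 24 h that did not pass. Its 4 h call was lost without any one of 5 of the 6 libraries, all but isotype 4 h replicate 3. Of 15 genes known to respond to IL-10 or STAT3, 14 were tested; 3 rose at 4 h, 3 rose and 1 fell at 12 h (Etv3), and 6 rose at 24 h. Without isotype 4 h replicate 3 the list held 8 calls at 4 h. Il1rn, the interleukin-1 receptor antagonist, rose by 1.11, 0.79 and 0.41, from 1216 to 2633 CPM at 4 h. Pim1, a kinase and STAT target, rose by 1.28 at 4 h and 0.46 at 24 h, and Timp1, a protease inhibitor, by 0.86, 0.83 and 0.57. Hmox1, the enzyme that breaks down heme, rose later, by 0.65 at 12 h and 1.09 at 24 h, as did Ddit4 (1.39) and Nfil3 (0.69) at 24 h. The 12 h call of Hmox1 was lost without FcMR 12 h replicate 2 or 3 or isotype 12 h replicate 1. The median log2 fold change of the tested genes of this list was 0.21, 0.13 and 0.39 at the 3 times.

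Of 14 regulators of Il10 transcription or mRNA, 2 rose at 4 h, 3 rose and 2 fell at 12 h, and 5 rose and 2 fell at 24 h. The 5 calls at 12 h became 2 to 4 when any one of the 6 libraries was left out (2 without isotype 12 h replicate 3) and 2 without the filter on low counts. Mapkapk2, a kinase of the p38 pathway, rose by 0.70, 0.57 and 0.72, and Map3k8, a kinase upstream of ERK, by 0.87 at 4 h and 0.34 at 12 h. Dusp1, a phosphatase that ends p38 signalling, rose by 0.58 at 12 h and 1.13 at 24 h, and Crem by 0.84 at 24 h. Maf, a transcription factor known to activate Il10, fell by -0.66 at 12 h and by -1.63 at 24 h, from 21.96 CPM with isotype to 6.95 CPM with FcMR; its 12 h call was lost without FcMR 12 h replicate 2 or 3 or isotype 12 h replicate 1 or 3. Of 12 other cytokine receptor genes, 11 were tested; 1 rose and 2 fell at 4 h, 2 rose and 4 fell at 12 h, and 1 rose and 3 fell at 24 h. Il6st, encoding gp130, fell by -0.74, -0.88 and -0.60 and Il6ra, the IL-6 binding chain, by -1.004, -0.55 and -0.59. Ifnar2, a chain of the type I interferon receptor, rose by 0.57, 0.69 and 0.85, and Csf3r by 0.86 at 12 h. After GC correction, which raised the share of all tested genes called at 4 h from 17.7% to 28.98%, the lists held more calls at that time as well: 6 of the JAK kinases and further STATs in place of 3, 4 of the other inhibitors in place of 2, 7 of the response genes in place of 3, 5 of the Il10 regulators in place of 2 and 5 of the receptors in place of 3, but 1 of the remaining SOCS genes in place of 2.

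**Figure D5:**
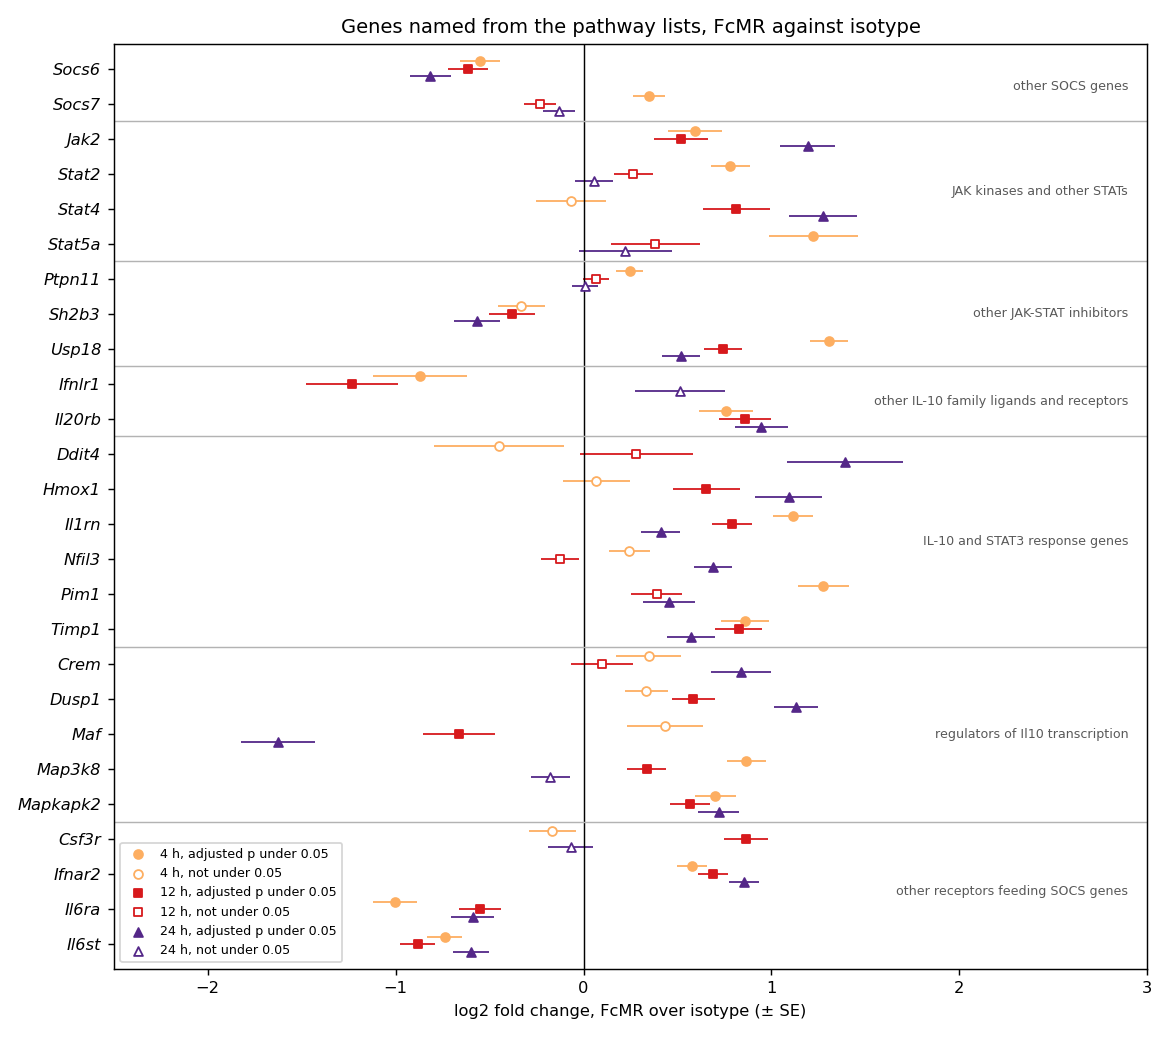
Log2 fold change of FcMR over isotype (x axis, with standard errors) at 4, 12 and 24 h for the genes named from the pathway lists (y axis), grouped by list; filled symbols have an adjusted p under 0.05. Il6ra, Il6st and Socs6 are filled and left of 0 at all 3 times; Jak2, Usp18, Il20rb, Il1rn, Timp1, Mapkapk2 and Ifnar2 are filled and right of it.

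Over the 21 libraries the course of Socs3 was most like that of Mapkapk2 among 11103 genes compared (Pearson r of log2 CPM 0.984), then of Tnfaip2 (0.969) and Tshz1 (0.964). For Il10 the 3 most like genes were Schip1 (0.983), Tarm1 (0.978) and Nos2 (0.966), for Socs1 Ppfia3 (0.977), Slc3a2 (0.970) and Foxp4 (0.963), for Cish Pfkp (0.968), Dirc2 (0.966) and Pmp22 (0.966), and for Socs2 Sppl2a (0.955), Psma4 (0.953) and Birc3 (0.943). Among the 8 genes the closest pair was Il10 and Socs3 (r = 0.901), followed by Il10ra and Cish (0.855) and Socs1 and Socs3 (0.853); Il10rb and Cish had the lowest value (-0.03). These values describe libraries that share treatments, and for Socs1, Socs3 and Cish also the GC tilt, and carry no p-value.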

How the data were processed

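The members and the other gene lists were chosen with earlier results of these data known. Estimated counts per gene (kallisto 0.44.0, builds mm10 and GRCm38, per the submitters' processing notes) were deposited by the authors as whole numbers, so rounding changed 0 values; every gene had a row sum of at least 10. The authors also deposited a normalized table on a linear signal scale, used only in an alternative. IDs were matched without version to GENCODE M21, which gave positions, transcript lengths and GC content (13440 of 13468 tested genes); the annotation release of the counts is not given in the sources used here, and the Socs1 ID differs from GENCODE M21 in its version. The test was edgeR 4.0.16 (R 4.3.3), quasi-likelihood, 1 fit of 21 libraries with TMM factors and a coefficient per group, after filterByExpr with its minimum of 10 counts; SE is the size of the log2 fold change over the root of F. Alternatives were RLE factors, DESeq2 1.42.0, no filter or one on a mean count of 10, GC correction (lowess per library, span 0.3), limma 3.58.1 on log2(normalized + 1), a replicate block, only the libraries compared, and leaving libraries out. The GC-corrected levels, and all alternatives applied to the other lists, were added after the data were seen. Named genes are all members, up to 3 called genes per list and time with the largest change, and the 3 genes most like each of 5 members at an average log2 CPM of at least 1 (prior count 2). Etv3, Socs4 and Socs5 fall outside that rule and were named after their values were seen. Replicate pairs correlated at 0.920 to 0.987 and differed by more than sampling noise. Intervals and floors cover counting error only. The fitting script was tested on simulated data. One gene of the pathway lists is not reported here.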

Additional observations from a re-analysis of the deposited data

Results flagged for a closer look

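The FcMR effect differed over the 3 times for 4 of the 8 genes by the joint test. As the effect at 24 h minus that at 4 h on the log2 scale, it changed by -0.54 for Il10ra, -0.66 for Il10rb, -0.67 for Stat3 and -1.08 for Cish. Of the other genes named, the change was negative for Socs7 (-0.48), Stat2 (-0.73), Usp18 (-0.79), Il1rn (-0.70), Pim1 (-0.82), Maf (-2.06) and Map3k8 (-1.04). It was positive for Stat4 (1.34), Ifnlr1 (1.38), Nfil3 (0.45), Hmox1 (1.02), Ddit4 (1.84) and Dusp1 (0.80), and small for Csf3r (0.10), whose rise stood at 12 h.

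Some members stood above untreated cells in every library at one time and below them in every library at another, and these reversals between times were not tested. Il10ra did so under isotype (0.32, then -0.23 and -0.34 at 4, 12 and 24 h) and under FcMR (0.75, then -0.30 and -0.45). Socs3 did so under isotype (1.52 at 4 h and -1.25 at 24 h), and Cish under FcMR (1.01, then -1.82 and -2.93).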

How the results depend on the processing

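Each FcMR effect on each of the 8 genes was recomputed under 16 alternatives, 384 values in all, of which 346 kept direction and side of the threshold, 17 lost a call, 17 gained one and 4 changed sign. Il10, Socs3 and Cish at 4 h, Il10 and Socs3 at 12 and 24 h, Il10ra and Stat3 at 4 h and Il10rb and Socs2 at 24 h kept their calls under all 16. The sign changes were of values near 0: Il10ra at 12 h after GC correction (0.0097, with the block 0.0084) and Il10rb at 12 h without both libraries out of title order (-0.011) or without FcMR 12 h replicate 1 (-0.011, the lowest of the values without a single library, which reach 0.073). 

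GC correction raised the genes called from 2390 to 3903 at 4 h, from 2169 to 3563 at 12 h and from 1484 to 3139 in the joint test, and the members called at 24 h against untreated cells with FcMR from 4 to 7. Other counts that moved by over 1.5 times were 868 genes at 4 h with only the libraries compared, 3898 there without both libraries out of title order, 2881 for isotype against untreated at 4 h with only the libraries compared, and in the joint test 925 without the filter and 2616 without both libraries; 7 members were called at 24 h against untreated with FcMR without both libraries. At 12 h 2 members were called on the authors' normalized values in place of 4. Without the filter the median log2 fold change of all genes at 4 h moved by 0.12. Sign changes against untreated cells and in the lists were Stat3 in isotype at 4 h (0.0084 after GC correction, 0.0091 with the block), Socs3 in isotype at 12 h (-0.15 after GC correction and with the block, -0.027 to 0.24 over the single libraries left out, lowest without untreated replicate 2), Il10 in isotype at 24 h (-0.99 to 0.63 over the single libraries left out, above 0 without untreated replicate 2 or isotype 24 h replicate 2), and Sh2b3 at 12 h (0.086 after GC correction, 0.066 with the block). For the genes named from the lists, 729 of 768 recomputed values kept direction and side of the threshold and 37 lost a call. The cause of these changes was not tested.

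Leaving out single libraries gave 1589 to 3151 genes called at 4 h, 1570 to 1841 at 12 h and 2091 to 3135 at 24 h for FcMR against isotype, and 973 to 2294 in the joint test; members called ran from 5 to 6, 3 to 4 and 4 to 6, and 3 to 5 in the joint test. FcMR 4 h replicate 2 gave the lowest count at 4 h and in the joint test, and isotype 4 h replicate 3 the highest.

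Same-numbered replicates deviated together little on average (mean correlation -0.07, 0.11 and 0.01 at 4, 12 and 24 h), with 0.20 for replicate 1 at 12 h. These values were taken without GC correction, in libraries of uneven GC tilt. They therefore cannot settle whether same-numbered libraries share a mouse or culture. With the replicate block 2541, 2290 and 2911 genes and 5, 4 and 4 members were called, Cish at 24 h being lost (0.76, adjusted p 0.0585, edgeR). The block with GC correction called 4072, 3755 and 4313 genes at 4, 12 and 24 h and 3395 in the joint test, and 7 members at 24 h against untreated with FcMR.

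Depth limits Il10: in untreated and isotype 24 h libraries Il10 lies below the floor of 3 counts in all but 1 library.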
